A study of Mus musculus with 6 samples.

Results

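Chemokines are small secreted proteins that draw leukocytes along a gradient, and they are grouped as CC or CXC by the spacing of their first cysteines. The 10 chemokine genes described here, 8 CC and 2 CXC, were chosen by symbol from the 32285 genes of the deposited tables: *Ccl2*, *Ccl3*, *Ccl4*, *Ccl6*, *Ccl7*, *Ccl9*, *Ccl12*, *Ccl24*, *Cxcl2* and *Cxcl16*. Each is 1 gene identifier in the tables, and all 10 had at least 18 UMIs over the 29412 barcodes.

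Chemokine receptors are G protein-coupled receptors, and 1 receptor is often shared by several ligands. *Ccl2*, *Ccl7* and *Ccl12* are ligands of *Ccr2* and attract monocytes. *Ccl3* and *Ccl4* attract macrophages and T cells, *Ccl6* and *Ccl9* act through *Ccr1*, and *Ccl24* acts through *Ccr3*, the receptor of eosinophils. *Cxcl2* attracts neutrophils through *Cxcr2*, and *Cxcl16* is a membrane-bound ligand of *Cxcr6*. In the brain, chemokines are made mainly by microglia, border macrophages, endothelial cells and astrocytes, and *Ccl3* and *Ccl4* are known as genes that microglia switch on quickly after a stimulus.

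The cells were live cells positive for CD45 and CD11b, sorted through a broad gate from the whole brain of 3 male C57BL/6J mice aged 89 days. Each brain was dissociated mechanically with a cold Dounce homogenizer, without enzymes. Mouse 2 (INHIB) received a cocktail of transcription and translation inhibitors in the perfusion, dissection and homogenization steps. The perfusion buffer held actinomycin D and triptolide, and the dissection buffer held these and anisomycin. Mice 1 and 3 (NONE) received no cocktail. Cells of every mouse were captured with both the V3.0 and the V3.1 version of the 10x Genomics 3′ kit, which gave 6 libraries sequenced as 1 pool. The INHIB group is therefore 1 mouse, and the libraries of a kit share their mice with those of the other kit.

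The libraries held between 6275898 and 18872816 UMIs. Of the barcodes, 19725 were kept, those with 1000 to 4000 detected genes whose UMIs numbered no more than 12000 and were no more than 15% mitochondrial. The V3.0 library of mouse 3 stood apart, with 21.5% of its barcodes passing against 70.0% to 76.8% in the others, and leaving it out changed no call of a chemokine gene. Barcodes were then gated on UMIs of marker genes, with no chemokine among them, into 16182 microglia, 302 neutrophils and 28 border macrophages, the macrophages of the meninges and perivascular spaces. The border macrophages were few, 10, 15 and 3 in mice 1, 2 and 3. Another 3213 passing barcodes were left out, of which 2509 had a microglial profile with more than 2 UMIs of the neutrophil list. In every mouse, 5 of 5 check genes that had no part in the gate were highest in their own class, for microglia (*Ly86* among them), for border macrophages (*Pf4*) and for neutrophils (*S100a8*). The median barcode held 3463 UMIs in microglia, 4247 in border macrophages and 5604 in neutrophils. No doublet caller was run, and 98 barcode sequences occurred in more than 1 library and were kept as separate cells. Levels are given as CPM, the UMIs of a gene in the summed cells scaled to 1000000 UMIs of all genes, and intervals on single values are exact 95% intervals that cover counting error only.

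The genes lie on mouse chromosomes 11 and 5 (mm10, GENCODE vM21). On chromosome 11, *Ccl2* (ENSMUSG00000035385, 82035571 to 82037453), *Ccl7* (ENSMUSG00000035373, 82045712 to 82047525) and *Ccl12* (ENSMUSG00000035352, 82101845 to 82103400) follow each other on the plus strand. Farther along are *Ccl9* (ENSMUSG00000019122, 83572919 to 83578636), *Ccl6* (ENSMUSG00000018927, 83587882 to 83593087) and *Ccl3* (ENSMUSG00000000982, 83647844 to 83649355), all on the minus strand, and *Ccl4* (ENSMUSG00000018930, 83662584 to 83664683) on the plus strand. *Cxcl16* (ENSMUSG00000018920, 70453983 to 70459984, minus strand) is on the same chromosome. *Cxcl2* (ENSMUSG00000058427, 90903871 to 90905938, plus strand) and *Ccl24* (ENSMUSG00000004814, 135569937 to 135573049, minus strand) are on chromosome 5. Genes on the opposite strand overlap *Ccl2* (*Gm17268*), *Ccl6* (*E230016K23Rik*) and *Cxcl16* (*Zmynd15*).

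Promoter sequences were at hand for 5 of the 10 genes, and 4 are printed because they contrast the genes that follow. *Ccl3* was found in few microglia, *Ccl12* was higher in the microglia that held *Ccl3* and *Ccl4*, and the neighbours *Ccl6* and *Ccl9* had different calls in those microglia and in neutrophils, a difference that was not itself tested. Each is the 250 bases before the RefSeq start, read 5′ to 3′ on the strand of the gene (RefSeq, GRCm38.p6). The coordinates are chr11:83649379-83649628 for *Ccl3*, chr11:82101595-82101844 for *Ccl12*, chr11:83593088-83593337 for *Ccl6* and chr11:83578637-83578886 for *Ccl9*. Capitals mark matches on either strand to the TATA motif TATAAA, the AP-1 motif TGANTCA or the NF-κB motif.
*Ccl3*: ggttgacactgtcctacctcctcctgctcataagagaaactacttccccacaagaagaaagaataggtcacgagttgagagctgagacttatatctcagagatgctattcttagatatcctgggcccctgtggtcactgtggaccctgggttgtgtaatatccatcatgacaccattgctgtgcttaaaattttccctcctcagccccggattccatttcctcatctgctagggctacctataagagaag
*Ccl12*: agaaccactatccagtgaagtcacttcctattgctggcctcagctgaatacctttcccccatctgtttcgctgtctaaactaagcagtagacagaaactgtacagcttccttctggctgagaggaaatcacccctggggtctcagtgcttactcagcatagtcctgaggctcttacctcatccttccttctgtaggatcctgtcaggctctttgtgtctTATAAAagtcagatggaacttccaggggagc
*Ccl6*: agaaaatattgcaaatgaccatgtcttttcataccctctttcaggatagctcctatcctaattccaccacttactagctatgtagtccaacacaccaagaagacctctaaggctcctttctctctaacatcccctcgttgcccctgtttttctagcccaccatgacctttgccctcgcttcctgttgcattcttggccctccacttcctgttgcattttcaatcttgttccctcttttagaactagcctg
*Ccl9*: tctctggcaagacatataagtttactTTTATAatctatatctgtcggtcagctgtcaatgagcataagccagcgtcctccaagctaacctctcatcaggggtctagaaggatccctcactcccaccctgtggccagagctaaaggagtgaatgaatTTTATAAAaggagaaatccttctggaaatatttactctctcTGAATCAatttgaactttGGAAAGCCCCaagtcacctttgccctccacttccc
The promoter of *Ccl12* held 1 match, TATAAA 31 bases before the start. The promoter of *Ccl9* held 5 matches: TATAAA on the plus strand 92 bases before the start, TATAAA on the minus strand 224 and 94 bases before it (the latter overlapping the plus-strand match), TGAATCA 53 bases before it and an NF-κB match 35 bases before it on the minus strand. No match lay in these windows of *Ccl3* and *Ccl6*. The promoter of *Cxcl2*, not printed, held an NF-κB match 97 bases before the start, which overlaps a match on the other strand. Of 32851 RefSeq promoter windows of 250 bases, 12.4% held TATAAA, 6.75% held TGANTCA and 7.25% held the NF-κB motif. The motifs TGACGTCA (1.55% of windows) and GAGGAAGT (2.44%) were searched too and matched none of the 5. Whether any match is used was not tested.

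In microglia *Ccl6*, a *Ccr1* ligand, was the most abundant of the 10 genes at 157.5 CPM ± 16.4 (SD, n = 6 libraries), with a lowest library of 134, a median of 157 and a highest of 183, all above the highest *Ccl12* library. *Ccl12* followed at 105 CPM ± 14.9, between 85.3 and 127 with a median of 107. *Ccl9* stood at 80.5 CPM ± 12.8, between 65.0 and 92.4 with a median of 81.5, and so overlapped *Ccl12*. *Cxcl16* was at 59.0 CPM ± 5.90, between 51.9 and 68.2 with a median of 59.7, which overlapped the lowest *Ccl9* library. These 4 genes, a *Ccr1* ligand pair, a monocyte attractant and the *Cxcr6* ligand, were each found in at least 17.4% of the 16182 microglia, *Ccl6* in 35.5%.

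Lower levels were found for the remaining genes, among them *Ccl3* and *Ccl4*, which microglia are known to induce. *Ccl4* was at 18.3 CPM ± 6.93, between 10.8 and 26.9 with a median of 16.9, and *Ccl3* was at 11.3 CPM ± 3.79, between 6.34 and 15.5 with a median of 11.8. The eosinophil attractant *Ccl24* was at 6.44 CPM ± 1.66, between 4.19 and 8.16, and *Ccl2* was at 5.64 CPM ± 1.20, between 4.40 and 7.44. *Ccl3* and *Ccl4* overlapped each other, as did *Ccl24* and *Ccl2*, and the lowest *Ccl3* library overlapped both of these. *Ccl7* had 23 UMIs in 9 microglia, at most 1.56 CPM in a library. *Cxcl2* had 2 UMIs in 2 microglia, both in the V3.1 library of mouse 2. All of these levels are counts of 3′ ends and need no correction for gene length.

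**Figure D1:**
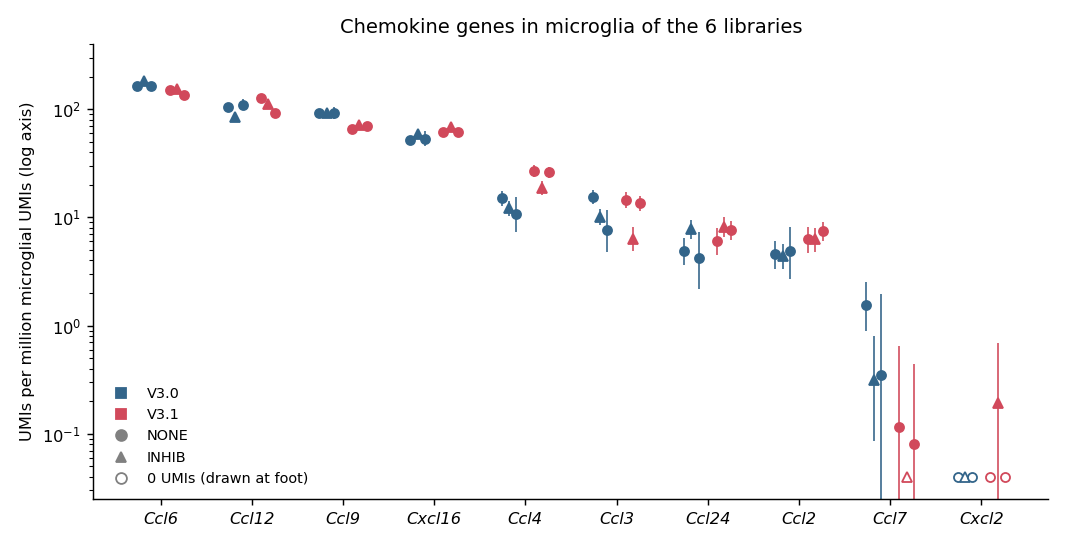
CPM in microglia (log axis) for the 10 chemokine genes, 1 point per library with its exact 95% counting interval. Blue is V3.0 and red V3.1, circles are NONE and triangles INHIB, and open symbols are libraries with 0 UMIs. *Ccl6* lies at the top between 134 and 183 CPM in every library, and *Ccl7* and *Cxcl2* lie at 1.56 CPM or below.

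Free RNA of other sorted cells can add UMIs to microglia, and check genes of those cells gauge its level. Microglia held *S100a8*, *S100a9* and *Wfdc21* at 0.209%, 0.211% and 0.188% of their level in neutrophils, and *Ccl6* at 16.9%. Check genes of border macrophages were held at 0.0228% (*Pf4*), 0.206% (*Cd74*) and 0.729% (*Apoe*) of their level there, against 10.0% for *Ccl12* and 5.65% for *Ccl24*. The check gene *Stab1* was at 257 to 267 CPM in microglia over mice, against 802 to 1697 CPM in border macrophages. *Dab2* was at 10.0 to 12.55 CPM against 830 to 1315 CPM. *Stab1* was thus held at a larger share than *Ccl12* or *Ccl24*, and whether free RNA or expression gave these shares was not tested. For *Ccl7*, whose level in border macrophages rests on 3 UMIs, the ratio was 1.76%. In shares of cells, *S100a8* had a UMI in 68.4% of microglia at 0.209% of its neutrophil level, so a share of cells with a UMI is not by itself a share of cells that express a gene. The neuronal gene *Snap25* had a UMI in 0.136% of microglia drawn down to 2000 UMIs each, against 1.40% for *Ccl3*, 1.09% for *Ccl4* and 0.621% for *Ccl2*.

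The genes differed most in how their UMIs were spread over cells. *Ccl4* was held by 257 microglia (1.59%), and the 10 with the most UMIs held 62.8% of its 1093 UMIs, with up to 159 in 1 cell. For *Ccl2*, 148 microglia (0.915%) held 329 UMIs, 41.6% of them in 10 cells. For *Ccl3*, 363 microglia (2.24%) held 670 UMIs, 33.1% of them in 10 cells. *Ccl24* gave a contrast at a like level: 362 microglia (2.24%) held 393 UMIs, no cell held more than 3, and 10 cells held 5.60%. The top 10 microglia held 1.17% of the UMIs of *Ccl6*, 1.62% for *Ccl9*, 1.93% for *Cxcl16* and 7.42% for *Ccl12*. *Ccl12* also had 64 microglia with 10 or more UMIs and a highest cell of 66, against 5, 2 and 1 such microglia for *Ccl6*, *Ccl9* and *Cxcl16*. *Ccl7* was decided by 1 cell, which held 15 of its 23 microglial UMIs. These spreads are those of the gated microglia, and the 3213 passing barcodes left out held 801 of the 2046 *Ccl4* UMIs and 318 of the 1060 *Ccl3* UMIs of all barcodes.

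**Figure D2:**
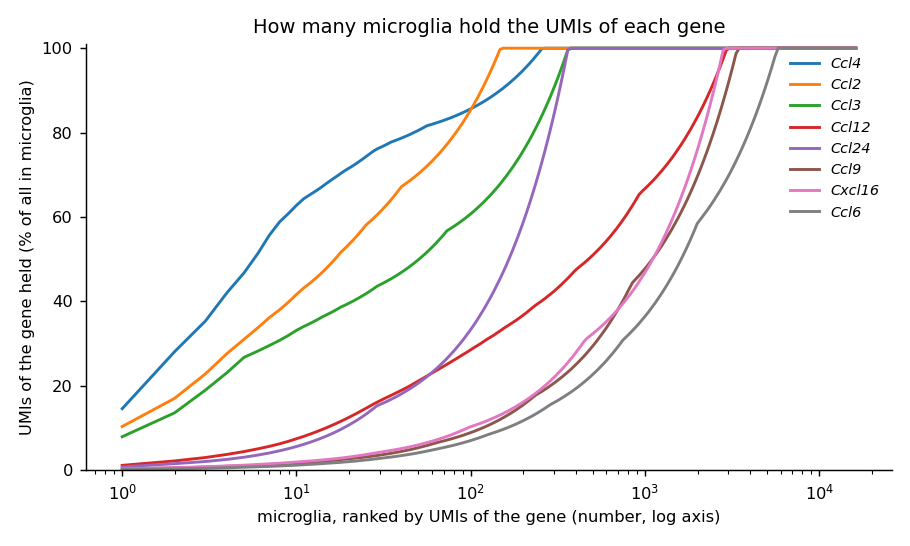
Percentage of each gene's microglial UMIs (vertical axis) held by the microglia ranked highest for that gene (number of cells, log axis), for 8 genes over 16182 microglia. The curve of *Ccl4* reaches 62.8% at 10 cells, whereas those of *Ccl6*, *Ccl9* and *Cxcl16* are under 2% there and rise more slowly.

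Microglia that held *Ccl2* or *Ccl3* held *Ccl4* more often than other microglia did. Of the 148 microglia with *Ccl2*, 10.8% also held *Ccl4*, against 1.503% of those without *Ccl2*. *Ccl4* was held by 15.7% of the microglia with *Ccl3* and by 1.26% of those without, and these 57 cells, 25, 22 and 10 in mice 1, 2 and 3, are called chemokine-positive below. Of the microglia with *Ccl2*, 54.1% held *Ccl12* against 17.9% without, and 6 of the 9 microglia with *Ccl7* held *Ccl2* as well. For *Ccl6* with *Ccl12*, by contrast, the shares were 19.5% and 17.6%, and for *Ccl6* with *Ccl24* they were 2.26% and 2.22%. Deeper cells are likelier to hold any 2 genes, and these shares are descriptions over cells of 6 libraries.

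Chemokine-positive microglia were under 1% of the gated microglia in every library, a share that does not cover the barcodes left out. They made up 0.622% of microglia with V3.0 in mouse 1 (17 of 2732 cells, exact 95% interval 0.363% to 0.994%), 0.348% in mouse 2 (13 of 3739, 0.185% to 0.594%) and 0.371% in mouse 3 (3 of 809, 0.0765% to 1.08%). With V3.1 they made up 0.326% (8 of 2453, 0.141% to 0.642%), 0.312% (9 of 2884, 0.143% to 0.592%) and 0.196% (7 of 3565, 0.0790% to 0.404%) in the same order. The share was lower with V3.1 in all 3 mice and the kits did not overlap, with means of 0.278% ± 0.0712 (SD, n = 3) and 0.447% ± 0.152 (SD, n = 3). The difference of −0.169 percentage points had p = 0.10 in a two-sided exact permutation test, the smallest p that 3 libraries against 3 allow. With each cell drawn down to 2000 UMIs the shares were 0.240% ± 0.0319 (V3.0) and 0.129% ± 0.0114 (V3.1), again with p = 0.10 in the exact permutation test. The difference was −0.0811 points without the V3.0 library of mouse 1 (p = 0.20, exact), and with barcodes of 500 or more genes it was −0.125 (p = 0.40, exact). With at least 3 UMIs of *Ccl3* and *Ccl4* as the rule the shares were 0.484% and 0.393% (p = 0.40, exact), and in mouse 2 the V3.1 library was then the higher, at 0.451% against 0.321%. Where a UMI of either gene was enough, the difference of −0.424 percentage points had p = 0.50, also exact, and the kits overlapped. The INHIB library was the lowest with V3.0, at 0.348%, and lay between the NONE libraries with V3.1, at 0.312%, and in both kits its interval overlapped theirs.

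Many of the positive cells were near the limit of detection. Of the 57, 22 held exactly 1 UMI of *Ccl3* and 1 of *Ccl4*, and 12 held 10 or more of *Ccl4*. Of the microglial check genes, *Ly86* was at 2198 to 2746 CPM over mice in the positive cells against 2149 to 2256 CPM in all microglia, *Trem2* at 2611 to 3241 against 2416 to 2492 CPM, *Csf1r* at 2428 to 2938 against 3147 to 3215 CPM and *Tgfbr1* at 1132 to 1237 against 1370 to 1382 CPM. Of the positive cells, 0 of 57 had a UMI of the border list, against 1.52% of the 15619 microglia with neither *Ccl3* nor *Ccl4*. The gate itself limits this list to 2 UMIs. Of the border check genes, *Cd74* was at 70.7 to 261 CPM over mice in the positive cells against 28.3 to 37.7 CPM. *Stab1* was at 131 to 259 against 257 to 268 CPM. The median depth of the positive cells was 4007 UMIs against 3455 in the microglia with neither gene. Some UMI of the neutrophil list was present in 63.2% of the former and 59.5% of the latter.

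Next, the other genes were compared between the positive microglia and the microglia with neither gene, to ask which chemokines accompany *Ccl3* and *Ccl4*. UMIs were summed per mouse, *Ccl3* and *Ccl4* were taken out because they define the split, and edgeR's quasi-likelihood test was run with the mouse as a block and Benjamini-Hochberg adjustment over 11437 genes. The thresholds for a call were those of the study, an adjusted p under 0.05 together with a change of more than 0.58 on the log2 scale in either direction. Of all genes, 1.08% were called, 0.638% higher and 0.437% lower in the positive microglia. Of the 8 remaining chemokine genes, 6 passed the filter on low counts, and 3 were called, all higher in the positive microglia. The median log2 fold change of the 6 was 1.13, against −0.21 over all genes tested.

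The monocyte attractant *Ccl2* was higher in the positive microglia in each mouse, at 249, 448 and 827 CPM in mice 1, 2 and 3, against 2.95, 3.57 and 4.30 CPM in microglia with neither gene. It rose by 6.89 on the log2 scale (SE 0.44, adjusted p = 1.05e-51), and the levels in the 2 kinds of cell did not overlap. The UMIs came from 11 of the 57 cells (19.3%), 5, 4 and 2 per mouse, against 130 of 15619 (0.832%), and 95 of the 102 UMIs were in cells with 10 or more UMIs of *Ccl4*.

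*Ccl12*, another *Ccr2* ligand, was at 211, 966 and 718 CPM in positive microglia of mice 1, 2 and 3, and at 91.9 to 111 CPM in those with neither gene. It rose by 2.47 on the log2 scale (SE 0.20, adjusted p = 5.05e-33). *Ccl6* was at 403, 236 and 500.5 CPM against 135 to 167 CPM and rose by 1.15 (SE 0.21, adjusted p = 1.78e-05). Mouse by mouse, both genes were higher in the positive cells in 3 of 3 mice. Both calls were lost when cells were drawn down to 2000 UMIs, which left 27 positive cells and log2 fold changes of 1.42 for *Ccl12* and 0.13 for *Ccl6* (adjusted p = 0.136 and 0.945 from edgeR). Both were also lost in the V3.0 libraries alone (0.71 and 1.06, adjusted p = 0.858 and 0.323 from edgeR), and *Ccl6* in the V3.1 libraries alone (0.87, adjusted p = 0.342 from edgeR) and without mouse 1 (1.00, adjusted p = 0.0623 from edgeR).

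*Cxcl16* was at 153, 58.9 and 218 CPM in the positive microglia against 55.1 to 61.8 CPM, a log2 fold change of 1.10 (SE 0.33) that missed the threshold in edgeR (adjusted p = 0.0701). It was called in 5 of 17 alternatives, among them RLE size factors in place of TMM (1.20, adjusted p = 0.0339 from edgeR) and a split at 3 or more UMIs of *Ccl3* and *Ccl4* (2.02, adjusted p = 2.2e-13 from edgeR), with log2 fold changes of 0.58 to 2.02 over the 17, and in mouse 2 it did not differ by more than the counting interval of 19.1 to 138 CPM. *Ccl9*, the *Ccr1* ligand next to *Ccl6*, was at 105, 58.9 and 87.0 CPM against 73.2 to 82.6 CPM, with a log2 fold change of 0.02 (SE 0.36, adjusted p = 0.995 from edgeR). *Ccl24* had 1 UMI in the positive cells (4.25 CPM over the 3 mice, 6.92 CPM in the others), and its log2 fold change of −0.73 had an SE of 1.73. *Ccl7* had 0 UMIs in the positive cells, which at 12.8 CPM for 3 UMIs limits little, and *Cxcl2* had 1.

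**Figure D3:**
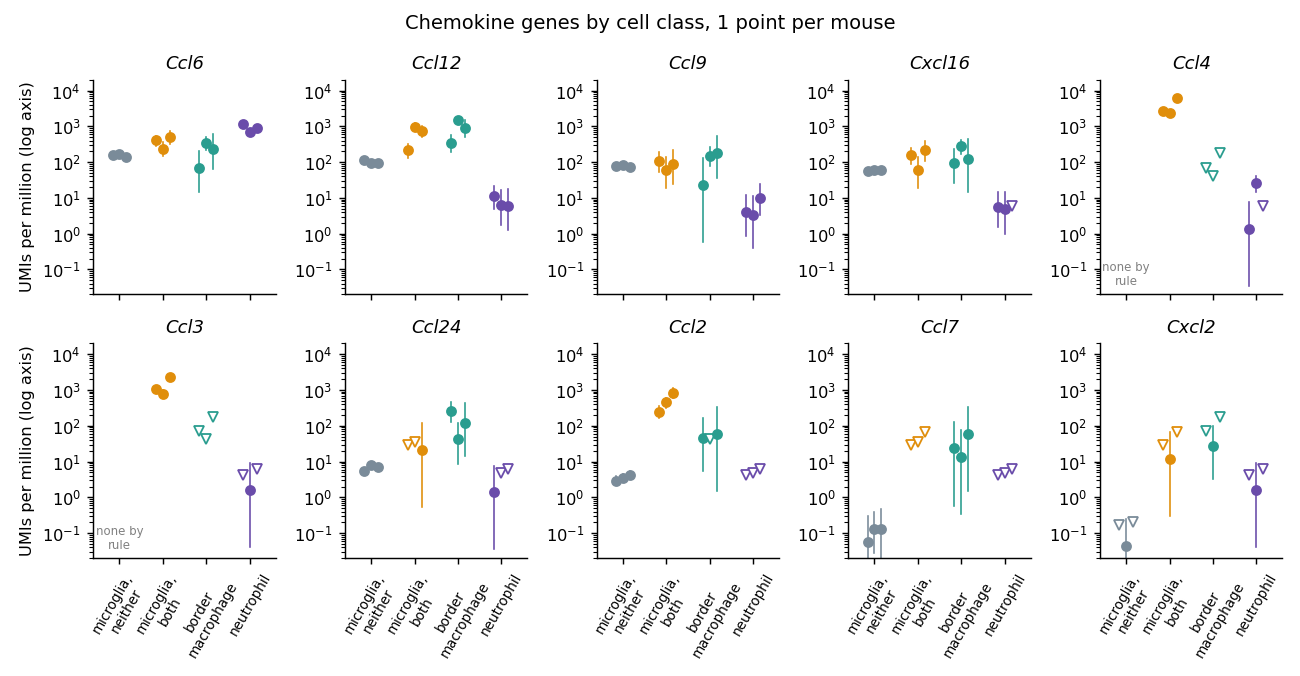
CPM (log axis) of the 10 chemokine genes in microglia with neither *Ccl3* nor *Ccl4*, microglia with both, border macrophages and neutrophils, 1 point per mouse with its exact 95% counting interval. Open triangles stand at the level of 3 UMIs for a mouse with 0 UMIs, and *Ccl3* and *Ccl4* are absent from the first class by rule. *Ccl2* sits at 249 to 827 CPM in the microglia with both genes and at 2.95 to 4.30 CPM in those with neither, and *Ccl6* is highest in neutrophils in each mouse.

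Among all genes, those most like *Ccl3* and *Ccl4* were taken as the called genes with the largest rises in positive microglia in the same direction in all 3 mice, of which there were 60. The 10 largest rises were those of *Gdf15*, *Ccl2*, *Egr1*, *Gadd45b*, *Gem*, *Csf1*, *Dusp2*, *Tnf*, *Atf3* and *Nes*. *Gdf15*, *Egr1*, *Gadd45b*, *Gem* and *Dusp2* were at no more than 1.34 CPM in microglia with neither gene. Such genes could pass the filter on low counts through the positive cells, so their calls and ranks are not counted as a result. In the positive cells 3 UMIs equal about 28.76, 35.35 and 65.28 CPM in mice 1, 2 and 3. *Tnf*, the gene of the cytokine tumour necrosis factor, was at 9.62, 177 and 198 CPM in positive microglia of mice 1, 2 and 3 and at 4.57, 2.36 and 2.15 CPM in the others, a log2 fold change of 5.11 (SE 0.68, adjusted p = 3.83e-11 from edgeR). *Csf1*, a growth factor of macrophages and microglia, was at 183, 94.6 and 1514 CPM against 7.69, 5.04 and 7.32 CPM (5.65, SE 0.45, adjusted p = 1.35e-32). *Atf3*, a stress-induced transcription factor, was at 173, 154 and 922 CPM against 12.6, 12.9 and 10.8 CPM (4.61, SE 0.38, adjusted p = 1.05e-30). *Egr1*, an immediate early gene and among those not counted, was at 28.9, 59.1 and 132 CPM against 0.39, 0.27 and 1.08 CPM. All 10 rises were called with RLE size factors and by DESeq2 too. Both used the same filtered genes, so this adds nothing for the genes not counted. The 5 largest falls, of *Gm20045*, *Senp7*, *Xrn1*, *Eng* and *Foxp1*, had log2 fold changes of −1.76 to −2.38 with TMM, −1.66 to −2.27 with RLE size factors and −1.69 to −2.24 by DESeq2, and of these 2 were called with RLE and 0 by DESeq2. Of the 123 calls, 73 were higher in the positive cells and 50 lower, against 94 and 16 with RLE size factors and 66 and 1 by DESeq2. With cells drawn down to 2000 UMIs the calls were 13 higher and 68 lower, and in the V3.1 libraries alone 37 and 80. At 3 or more UMIs of *Ccl3* and *Ccl4* they were 139 and 164, and in the V3.0 libraries alone 11 and 0. The balance of rises and falls thus depended on the setting.

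Border macrophages are long-lived macrophages outside the parenchyma, known for scavenging and antigen presentation. The classes were compared in a single edgeR fit over 8260 genes with the mouse as a block, in which 11.1% of genes were called in border macrophages against microglia, 5.68% higher and 5.45% lower. These were 469 and 450 genes, against 668 and 210 by DESeq2. Of the 10 chemokine genes, 8 passed the filter on low counts and 4 were called, all higher in border macrophages, a count that ran from 2 to 6 over the alternatives. *Ccl7* and *Ccl24*, scarce in microglia, passed a filter that *Ccl3*, at a higher microglial level than either, did not, so a gene could pass through its level in border macrophages and the count is not read as a result about the members. In summed cells, fewer cells that express a gene and less RNA per cell cannot be told apart.

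*Ccl12* was at 349, 1452 and 896 CPM in border macrophages of mice 1, 2 and 3 against 114, 97.3 and 95.1 CPM in microglia, with no overlap. It rose by 3.27 on the log2 scale (SE 0.22, adjusted p = 5.81e-48), and it was found in 15 of 28 border macrophages (53.6%) and 18.3% of microglia. In all, 1 cell held 52 of the 135 UMIs. Drawn down to 2000 UMIs, the shares were 50.0% (exact 95% interval 30.6% to 69.4%) and 12.1% (11.6% to 12.6%).

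*Ccl24* was at 256, 41.5 and 120 CPM in border macrophages against 5.40, 7.95 and 6.96 CPM in microglia. It had 16 UMIs in 6 border macrophages, a ratio to microglia of 17.7 with a counting interval of 10.0 to 29.1. It could pass the filter only through its level in border macrophages, so its call is not counted as a result. *Cxcl16* was at 93.0, 277 and 120 CPM against 56.0, 62.9 and 59.7 CPM and rose by 1.76 (SE 0.39, adjusted p = 0.00015). The call of *Cxcl16* was lost without mouse 2, at 0.62 (adjusted p = 0.758 from edgeR), and by DESeq2, at 1.58 (adjusted p = 0.056). *Ccl7* had 1 UMI in each mouse, 3 of 28 cells, against 23 UMIs over all microglia, a ratio of 56.7 with a counting interval of 10.9 to 188. Like *Ccl24*, it could pass the filter only through border macrophages, so its call (adjusted p = 0.0147 from edgeR) is not counted as a result. The call of *Ccl7* was lost without mouse 2 (adjusted p = 0.137) and when no filter on low counts was applied (adjusted p = 0.0621).

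*Ccl6* and *Ccl9* were not called. *Ccl6* was at 69.8, 332 and 239 CPM in border macrophages (log2 fold change 0.64, SE 0.36, adjusted p = 0.288 from edgeR) and *Ccl9* at 23.3, 152 and 179 CPM (0.58, SE 0.45, adjusted p = 0.503). Without mouse 2 both turned negative, to −0.56 and −0.38, and without mouse 1 *Ccl6* was called (1.17, adjusted p = 0.0411 from edgeR). *Ccl2* had 3 UMIs in 3 cells, a ratio to microglia of 3.96 with a counting interval of 0.813 to 11.7. *Ccl3* and *Ccl4* had 0 UMIs. In 28 cells a count of 0 is compatible with up to 10.7% of cells and 22.7 CPM, above the levels in microglia, so a difference was not detectable at this depth. *Cxcl2* had 2 UMIs in 1 cell.

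The border macrophages also held *Ccr2*, a receptor gene used as a monocyte marker, at 0, 221 and 837 CPM in mice 1, 2 and 3, in 3 of the 28 cells, and the part of these cells in the results was not tested. With a gate of 2 marker genes in place of 3, which raised the number of border macrophages to 47, *Ccl2* and *Ccl6* were called as well, at 3.50 and 0.89 (adjusted p = 2.67e-05 and 0.0136 from edgeR). With barcodes of 500 or more genes *Ccl2* was called too, at 3.56 (adjusted p = 8.66e-05 from edgeR). *Ccl2* had a lower microglial level than *Ccl3*, which failed the filter above, so it could pass through its level in border macrophages. These calls of *Ccl2* are not counted as a result.

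Neutrophils are short-lived cells of the blood that the gate also admits, and 61.5% of genes were called between them and microglia, 29.1% higher and 32.4% lower. Of the chemokine genes, 8 passed the filter, 1 was called higher and 4 lower. *S100a8* and *S100a9* alone took 176800 and 193300 CPM in neutrophils, and the scaling mattered here: without TMM the median log2 fold change over all genes was lower by 1.45, and the calls over all genes were 977 higher and 6084 lower, against 2401 and 2680 with TMM. The median log2 fold change of the 8 was −2.0 with members at 0 UMIs set to their bound and −2.34 as fitted, against −0.19 over all genes.

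*Ccl6* was the 1 chemokine gene called higher in neutrophils. It was at 1183, 674 and 874 CPM in mice 1, 2 and 3 against 157, 169 and 139 CPM in microglia, with no overlap between classes. It rose by 3.97 on the log2 scale (SE 0.19, adjusted p = 1.44e-98), and by 2.51 without TMM. In the 6 libraries it was at 1136, 626 and 752 CPM with V3.0 and at 1229, 713 and 913 CPM with V3.1, so that V3.1 gave the higher level in each mouse. It was found in 172 of 302 neutrophils (57.0%), and after drawing down to 2000 UMIs in 43.7% (exact 95% interval 38.0% to 49.5%) against 24.0% of microglia (23.3% to 24.7%).

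Its neighbour *Ccl9* went the other way, at 4.14, 3.22 and 10.2 CPM against 79.5, 83.0 and 74.4 CPM (−2.43, SE 0.40, adjusted p = 3.82e-09). *Ccl12* was at 11.05, 6.45 and 6.10 CPM (−2.24, SE 0.34, adjusted p = 2.07e-10) and *Cxcl16* at 5.52, 4.83 and 0 CPM (−2.54, SE 0.46, adjusted p = 1.11e-07). Each was lower in 3 of 3 mice. These 3 genes stood at 6.85%, 7.98% and 6.38% of their microglial level, close to the microglial check genes *Csf1r*, *Trem2*, *Ly86* and *Tgfbr1*, at 5.34% to 7.89%, and these UMIs were not read as expression by neutrophils. *Ccl2* had 0 UMIs in neutrophils and was at least 3.51-fold lower than in microglia on the CPM scale, taking 3 UMIs over all neutrophils as the limit. Its call (adjusted p = 0.0327 from edgeR) was lost in 4 of 10 alternatives: by DESeq2 (adjusted p = 0.0655), without mouse 2 (adjusted p = 0.1), where low counts were not filtered out (adjusted p = 0.0624) and with barcodes of 500 or more genes, where the log2 fold change was −1.45 (adjusted p = 0.203).

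*Ccl4* had 17 UMIs in 3 neutrophils, 14 of them in 1 cell of mouse 2, and was at 1.38, 25.8 and 0 CPM. It was not called with TMM (0.38, adjusted p = 0.457 from edgeR), and without mouse 2 it was lower by 3.37 on the log2 scale (adjusted p = 0.00672). Without TMM it turned to −1.07 (adjusted p = 0.00674). *Ccl3*, *Ccl24* and *Cxcl2* had 1 UMI each in neutrophils and *Ccl7* had 0. *Ccl24* was not called with TMM (−2.19, adjusted p = 0.126 from edgeR) and was called lower without it (−3.61, adjusted p = 0.000668), where 7 of the chemokine genes were called in place of 5.

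**Figure D4:**
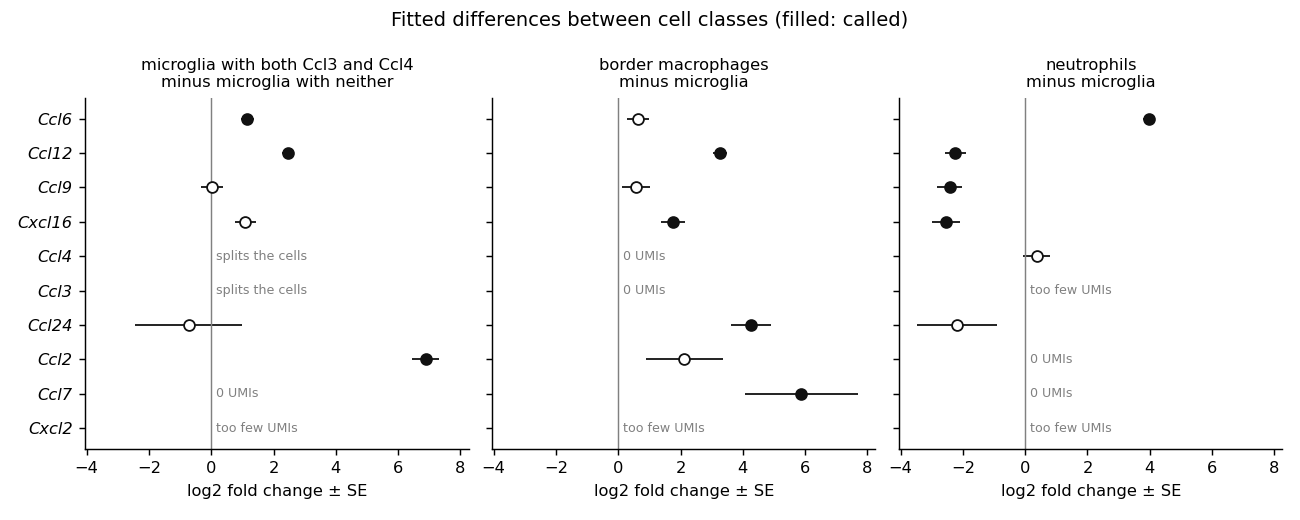
Fitted log2 fold change ± SE (horizontal axis) of each chemokine gene between microglia with both and with neither of *Ccl3* and *Ccl4*, between border macrophages and microglia, and between neutrophils and microglia, with sums per mouse. Filled points passed both thresholds, and those of *Ccl7* and *Ccl24* in border macrophages are not counted as a result. *Ccl12* is at 2.47 and 3.27 in the first 2 panels and at −2.24 in neutrophils, where *Ccl6* alone lies to the right among the filled points.

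The kits were compared to ask whether the chemistry changes how these genes are detected in microglia. Of 11815 genes, 3.00% were called between V3.1 and V3.0 in microglial UMIs summed per library (3 against 3), 1.43% higher and 1.57% lower with V3.1. Of the 10 chemokine genes, 8 passed the filter, 1 was called, and the median log2 fold change of the 8 was 0.20 against 0.00 over all genes. In CPM the libraries of the kits did not overlap for 5 of the 8, against 32.3% of all genes tested.

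*Ccl4*, the called gene, was at 15.1, 12.1 and 10.8 CPM with V3.0 in mice 1, 2 and 3 and at 26.9, 18.7 and 26.1 CPM with V3.1. The V3.1 library was the higher in each mouse, by 0.89 on the log2 scale (SE 0.15, adjusted p = 0.00209 from edgeR). With the mouse as a block, 557 genes were called in place of 355, *Ccl4* among them at 0.85 (adjusted p = 4.96e-05) and no other chemokine gene. The share of cells did not follow: it was lower with V3.1 in mice 1 and 3 and higher in mouse 2. *Ccl4* had a UMI in 61 of 2732, 48 of 3739 and 16 of 809 microglia with V3.0 and in 44 of 2453, 40 of 2884 and 48 of 3565 with V3.1. These were means of 1.83% ± 0.491 (SD, n = 3) and 1.51% ± 0.248 (SD, n = 3), with p = 0.40 in a two-sided exact permutation test. Single cells held up to 159, 51 and 148 UMIs in the V3.1 libraries of mice 1, 2 and 3 and up to 48, 79 and 9 in the V3.0 libraries.

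Without the 1 microglial cell highest in *Ccl4* in each library, a setting chosen after these values were seen, the levels overlapped, at 10.4, 5.89 and 7.70 CPM with V3.0 and 8.48, 13.8 and 14.2 CPM with V3.1. The difference was then 0.65 (SE 0.23, adjusted p = 0.073 from edgeR). With 809 microglia drawn from each library, *Ccl4* was at 55.85 CPM in the V3.1 library of mouse 3 and at 5.67 to 10.8 CPM in the other 5, and the call was lost (1.32, adjusted p = 0.155 from edgeR). The call was also lost in a wider gate that admitted microglia with up to 10 UMIs of the neutrophil list, at 0.58 (adjusted p = 0.0218 from edgeR), just under the fold threshold. There 1 added cell with 69 UMIs moved the V3.0 library of mouse 2 from 12.1 to 16.2 CPM.

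**Figure D5:**
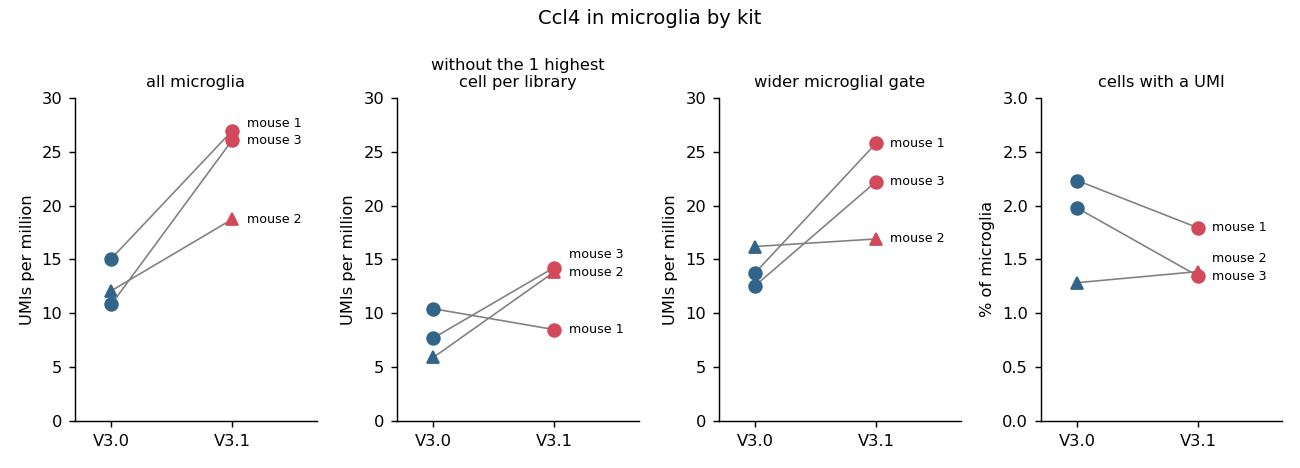
*Ccl4* in microglia of the 6 libraries by kit, with lines joining the libraries of a mouse: CPM in all microglia, without the highest cell of each library, and in the wider gate, and the percentage of microglia with a UMI. Circles are NONE and triangles INHIB. The kits separate in the first panel (10.8 to 15.1 against 18.7 to 26.9 CPM) and overlap without 1 cell per library and in the share of cells.

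*Ccl9* was lower with V3.1 at nearly equal levels within a kit, 91.7, 92.4 and 91.9 CPM with V3.0 in mice 1, 2 and 3 and 65.0, 71.4 and 70.4 CPM with V3.1. The difference of −0.40 (SE 0.07, adjusted p = 0.00367 from edgeR) was beyond the spread of the libraries but under the fold threshold, so it was not called. The share of microglia with *Ccl9* was 23.3% ± 1.75 (SD, n = 3) and 18.7% ± 0.850 (SD, n = 3), without overlap. *Ccl6* was at 163, 183 and 162 CPM with V3.0 and 151, 152 and 134 CPM with V3.1, again lower in each mouse (−0.21, SE 0.08, adjusted p = 0.102 from edgeR), whereas in neutrophils the V3.1 libraries held more. *Cxcl16* was at 51.9, 58.5 and 53.4 CPM with V3.0 and 60.9, 68.2 and 61.1 CPM with V3.1 (0.23, SE 0.09, adjusted p = 0.0958), and *Ccl2* at 4.57, 4.40 and 4.89 CPM and 6.27, 6.24 and 7.44 CPM (0.57, SE 0.18, adjusted p = 0.0529 from edgeR). Each mouse gave more of both genes with V3.1, and neither was called.

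*Ccl3*, *Ccl12* and *Ccl24* overlapped between kits. *Ccl3*, the partner of *Ccl4*, was at 15.5, 10.1 and 7.69 CPM with V3.0 and 14.5, 6.34 and 13.5 CPM with V3.1, a difference of −0.02 (SE 0.26, adjusted p = 0.97 from edgeR) whose sign turned in 6 alternatives. *Ccl7* had 16, 4 and 1 UMIs with V3.0 and 1, 0 and 1 with V3.1, 15 of them in 1 cell, and fell under the filter with *Cxcl2*.

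The inhibitor cocktail is meant to stop transcription and translation during the preparation, so its groups bear on which of these genes are induced ex vivo. Only 1 mouse received it, so mouse and cocktail cannot be told apart, and the fit takes the spread from the 2 NONE mice. In microglia of the INHIB mouse *Ccl3* was at 8.43 CPM, against 15.04 and 12.4 CPM in NONE mice 1 and 3. *Ccl4* was at 15.1 CPM, against 20.5 and 23.2 CPM. These sums pool the kits in unequal shares. Within kits, both genes were lowest in the INHIB library with V3.1, at 6.34 CPM for *Ccl3* and 18.7 CPM for *Ccl4*, and lay between the NONE libraries with V3.0, at 10.1 and 12.1 CPM.

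None of the 9 chemokine genes that passed the filter was called by edgeR, or by DESeq2, where 0.132% of 12916 genes were called by edgeR, 0.0697% higher and 0.0619% lower in the INHIB mouse. At an unadjusted p below 0.05 there were 781 of the 12916 genes, 2 of them chemokine genes, *Ccl3* (−0.70, SE 0.17, adjusted p = 0.407) and *Ccl4* (−0.52, SE 0.14, adjusted p = 0.501). *Ccl3* was called lower in 3 alternatives, with no filter on low counts (−0.69, adjusted p = 0.00892 from edgeR), with barcodes of 500 or more genes (−0.66, adjusted p = 0.00785) and in the V3.1 libraries alone (−1.14, adjusted p = 0.00485). The others ranged from −0.21 (*Ccl2*) to 0.39 (*Ccl24*) on the log2 scale, apart from *Ccl7*, which was at 0.90, 0.173 and 0.130 CPM in mice 1, 2 and 3. *Ccl2* was at 5.23 CPM in the INHIB mouse and at 5.35 and 6.96 CPM in the NONE mice, and *Ccl12* at 97.3 CPM against 114 and 95.1 CPM. The median log2 fold change of the 9 was −0.09, against −0.01 over all genes. In the interaction of kit and inhibitor, 0 of the 9 chemokine genes and 0 of 12488 genes were called by edgeR, with 0 and 102 at an unadjusted p below 0.05. In that fit each INHIB arm was 1 library, both came from the same mouse and there was no mouse term. No other tool was run for the interaction.

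The rest of the chemokine system was covered by a list of 27 other ligand genes and 23 receptor genes. In microglia few ligands were above the filter, 3 of 27 in the kit comparison and 6 in the inhibitor comparison, with 0 called, and of the receptors 9 and 12 were tested with 0 called. In border macrophages 4 of the 27 ligands passed the filter, and because genes near 0 in microglia could pass it only through their level in another class, their calls are not counted as a result. The 3 called higher were *Pf4*, a platelet-derived CXC chemokine and a check gene of this class (1135 to 2697 CPM over mice against 0.260 to 0.688 CPM in microglia), *Ccl8*, a CC ligand (0 to 124 CPM against 0 to 0.0530 CPM) and *Cxcl14* (41.5 to 179 CPM against 0.0651 to 0.318 CPM).

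Among 6 receptors tested, 3 were called higher in border macrophages. *Ccr1*, *Ccr2*, *Cxcr2* and *Cxcr4* had a lower microglial level than *Ccl3*, which failed the filter, so they could pass it only through another class. As for the ligands, calls of these receptors here and in neutrophils are not counted as a result. *Ccr1*, receptor of *Ccl6* and *Ccl9*, was at 96.8 to 395 CPM against 6.57 to 9.24 CPM in microglia, and *Ccr2* and *Cxcr4* were the others that rose. *Cx3cr1*, the fractalkine receptor, fell by 2.39 on the log2 scale (SE 0.24, adjusted p = 7.67e-21 from edgeR). Neutrophils had *Ccr1* at 203 to 273 CPM, *Cxcr2* at 504 to 584 CPM and *Cxcr4* at 172 to 205 CPM, all called higher than in microglia. *Cx3cr1* was called lower there (−2.79). In chemokine-positive microglia 1 of 7 receptors tested, *Cx3cr1*, was called. It was at 2924 to 3040 CPM over mice against 3804 to 4490 CPM in microglia with neither gene. It was lower in 3 of 3 mice (−0.61, SE 0.14, adjusted p = 0.00236 from edgeR), just beyond the fold threshold. Over all genes, the calls lower in positive microglia were 50 with TMM, 16 with RLE size factors and 1 by DESeq2. Over the other settings they ran from 0 (V3.0 libraries alone) to 164 (3 or more UMIs of *Ccl3* and *Ccl4*). Whether the call of *Cx3cr1* held in these alternatives was not tested.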

How the data were processed

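The authors aligned and counted the reads with Cell Ranger 5.0.0 on mm10 and deposited, for each of 6 libraries, a filtered matrix of raw UMI counts for 32285 genes, not normalized and not corrected for free RNA. Strand settings are not given in the sources used here. Barcodes were kept if they had 1000 to 4000 detected genes and no more than 12000 UMIs, of which 15% or fewer were mitochondrial, and were classed by marker UMIs (at least 5 UMIs from at least 3 genes of the class, at most 2 of each other list and 1 of the lymphoid list). No doublet caller was run.

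Counts were summed per library (kit, interaction) or per mouse (inhibitor, classes, chemokine-positive microglia) and tested with edgeR 4.0.16 (quasi-likelihood, TMM, filterByExpr, Benjamini-Hochberg over all genes tested) in R 4.3.3, with DESeq2 1.42.0 as an alternative. The class and positive-cell fits had the mouse as a block. Same-numbered libraries came from the same mouse, and their deviations from the kit means over 500 genes correlated at 0.308, 0.450 and 0.115. Shares were compared with two-sided exact permutation tests in scipy 1.17.1. Intervals are exact (Poisson or Clopper-Pearson, 95%), the limit for a count of 0 is 3 UMIs, and both cover counting error only. The fits were tested on simulated data. Figures were drawn with matplotlib 3.10.9.

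Described are all 10 members, other ligands and receptors by count with values for those called, the 10 largest rises and 5 largest falls that went the same way in all 3 mice, and genes that check the gates or gauge free RNA. The members and lists were chosen with earlier results of these data known. Promoter windows and motif shares used RefSeq (GRCm38.p6) and gene positions GENCODE on mm10. Some results are not reported here.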

Additional observations from a re-analysis of the deposited data

Results flagged for a closer look

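Of 11 groups of 6 libraries tested for a sample far from the others, 2 had one, and chance flags about 1 in 20 groups (0.55 expected here). Microglial *Ccl7* was highest in mouse 1 captured with V3.0, at 1.557 CPM, and at 0.349 CPM in the next highest library, with 15 of the 16 UMIs of the former in 1 cell. Microglial *Cxcl2* was at 0.1921 CPM in the V3.1 library of mouse 2, from 2 UMIs, and at 0 CPM in the other 5.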

How the results depend on the processing

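Across the alternatives, 485 values of single genes with an adjusted p kept their direction and their side of the threshold, 17 lost a call, 13 gained one and 23 changed sign. Of those with no adjusted p, 16 kept their direction and 3 changed sign. The number of chemokine genes called between kits was 1, and became 2 with no filter on low counts, and 0 in the wider gate, without the 1 microglial cell highest in *Ccl4* in each library and with equal numbers of microglia. Between INHIB and NONE it was 0, and became 1 with no filter on low counts, with 500 genes per barcode and in the V3.1 libraries alone. In border macrophages it was 4, and 2 to 4 when a mouse was left out, with 2 without mouse 2. In neutrophils it was 5, and 7 with library totals. In chemokine-positive microglia it was 3, and 1 after drawing down to 2000 UMIs and in the V3.0 libraries alone. The wider gate, library totals without TMM, the border gate of 2 genes, leaving out both libraries of a mouse and leaving out the top *Ccl4* cells were chosen after the data were seen. The cause of these changes was not tested.

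On the log2 scale, the kit difference of *Ccl3* became 0.046 with DESeq2 and 0.018 with equal numbers of microglia, and ranged from −0.288 to 0.281 when libraries or mice were left out. With one NONE mouse left out, the inhibitor differences ranged from −0.404 to 0.007 for *Ccl2*, −2.195 to 0.355 for *Ccl7* and −0.194 to 0.039 for *Ccl12*, and *Ccl12* became 0.004 with 500 genes per barcode and 0.047 in the V3.1 libraries alone. In border macrophages, leaving out a mouse gave −0.556 to 1.171 for *Ccl6* and −0.381 to 1.133 for *Ccl9*, and the gate of 2 genes gave 1.325 for *Ccl4*. In neutrophils *Ccl4* became −0.654 with DESeq2, −1.074 with library totals and −3.371 to 1.046 when a mouse was left out, and *Ccl7*, at 0 UMIs, became 1.391 with DESeq2. In chemokine-positive microglia *Ccl9* became −0.001 with no filter, −0.043 in the wider gate, −0.996 after drawing down and −0.756 in the V3.1 libraries alone, with −0.337 to 0.273 when a mouse or library was left out. *Ccl24*, with 1 UMI there, became 0.137 in the V3.0 libraries alone and ranged from −9.081 to 0.055 when a mouse was left out.

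The mouse as a replicate block in the kit fit kept *Ccl4* called at 0.846, and dropping the block from the class and positive-cell fits changed no call of a gene that remained testable. Exact sign flips within mice gave p = 0.25 for the share of chemokine-positive microglia, the smallest p that 3 pairs allow, and the difference ranged from −0.218 to −0.0811 percentage points when a library was left out. Over all genes, calls ranged from 151 to 557 between kits (355 as reported), 14 to 111 for the inhibitor (17), 460 to 1269 for border macrophages (919), 4070 to 7061 for neutrophils (5081) and 11 to 303 for chemokine-positive microglia (123). Depth limits the border macrophages most: 3 UMIs over all 28 cells equal 22.7 CPM.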
